A study of Mus musculus with 30 samples.

Results

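The growth hormone (GH) and insulin-like growth factor (IGF) axis of mouse liver was described through 10 genes. They were the GH receptor *Ghr*, the hormone *Igf1*, its carrier subunit *Igfals*, the binding proteins *Igfbp1*, *Igfbp2*, *Igfbp3*, and *Igfbp4*, and the feedback inhibitors *Socs2*, *Socs3*, and *Cish*. The list was chosen with earlier results of these data known, and its rows were found by symbol in a time course of livers and by Ensembl identifier in an experiment on *Egr-1* genotype. These were 10 of 54429 symbols listed in the time course and 10 of 55471 genes listed in the genotype experiment. All 10 members passed the filter on low counts in every comparison.

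GH is released by the pituitary in pulses and binds its receptor on hepatocytes, where the kinase JAK2 then activates the transcription factor STAT5. STAT5 raises *Igf1* and *Igfals* and also *Socs2* and *Cish*, whose proteins damp the same receptor, whereas *Socs3* responds mainly to inflammatory cytokines through STAT3. Liver supplies most circulating IGF1, which travels bound to binding proteins, and its longest-lived form is a complex with IGFBP3 and the acid-labile subunit encoded by *Igfals*. The pattern of GH pulses differs between the sexes in rodents and sets the expression of many sex-biased liver genes.

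The time course held livers of male C57BL/6J wild-type mice at 2, 6, and 12 months of age, with 1 library at each of ZT1, 5, 9, 13, 17, and 21 for each age (zeitgeber time, hours after lights on). The genotype experiment held WT livers and livers labelled KO, also of male mice at 2, 6, and 12 months. Each age and genotype had 1 library of class H, collected when Egr-1 protein peaked over the day, and 1 of class L, collected at its trough. The H and L times were ZT13 and ZT17 at 2 months, ZT9 and ZT21 at 6 months, and ZT5 and ZT21 at 12 months. In the KO line, floxed *Egr-1* was deleted by Cre under the albumin promoter, which is active in hepatocytes, and the WT mice were littermates whose alleles and Cre status the methods do not detail. The KO line had been backcrossed to C57BL/6J for several generations. All mice lived under light and dark phases of equal length, with chow freely available.

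Libraries held 13375377 to 16557378 counted reads in the time course and 13747706 to 21748956 in the genotype experiment. Each age and time, and each age, genotype, and time class, had 1 library, so that libraries of other times or genotypes stood in for replicates and p-values measure the spread between these libraries. The study describes several mice per group for the genotype experiment, while each group had 1 library in the files used here, and whether RNA of several mice was pooled was not stated. Levels are CPM, reads scaled to library size with TMM normalization, and tests are edgeR's quasi-likelihood F-test over all genes with Benjamini-Hochberg adjustment and a threshold of 0.05. *Egr1*, the targeted gene, was lower in the library labelled KO in 4 of 6 pairs. Among these, in the H pair at 2 months, *Egr1* differed little (2.57 CPM in WT and 1.99 CPM in KO). It was higher in the L pair at 2 months (1.45 CPM in WT and 7.43 CPM in KO) and nearly equal in the H pair at 12 months (5.83 and 6.11 CPM). Hepatocyte markers dominated all libraries, with a summed level of 38229.8 to 121703 CPM for the 6 genes listed. In whole liver, fewer cells of a type and less RNA per cell cannot be told apart.

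Per transcript length, the binding proteins *Igfbp4* and *Igfbp2* were the most abundant members and the feedback inhibitors the least. *Igfbp4*, which binds IGF1 and restrains its action, stood at 241 ± 39.9 FPKM (SD, n = 18) in the time course. *Igfbp2*, a binding protein made mainly by hepatocytes, followed at 224 ± 67.0 FPKM, and their ranges over the 3 ages overlapped. In the median shares given below, *Igfbp4* was above *Igfbp2* at 6 months and below it at 12 months. *Igf1* (65.2 ± 9.67 FPKM) and *Ghr* (56.5 ± 9.82 FPKM) came next and also overlapped. *Igfbp1* and *Igfals* lay at 21.4 ± 32.5 and 20.5 ± 5.55 FPKM. *Igfbp3*, the main carrier of IGF1 in blood, had only 5.45 ± 1.58 FPKM, close to *Socs3* (5.05 ± 7.90 FPKM). *Socs2* (2.46 ± 1.51 FPKM) and *Cish* (1.85 ± 1.12 FPKM) were the lowest. The highest library was 1.64 times the lowest for *Igf1*, 1.74 times for *Igfbp4*, 2.37 times for *Ghr*, and 2.88 times for *Igfals*. The ratio was 3.50 for *Igfbp3*, 3.76 for *Igfbp2*, 10.8 for *Cish*, 11.7 for *Socs2*, 28.2 for *Igfbp1*, and 43.8 for *Socs3*. In the genotype experiment, *Igfbp4* was again highest at 401 ± 112 FPKM (n = 12) and *Igfbp2* second at 221 ± 114 FPKM, and *Socs2* was lowest at 1.53 ± 0.819 FPKM.

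**Figure D1:**
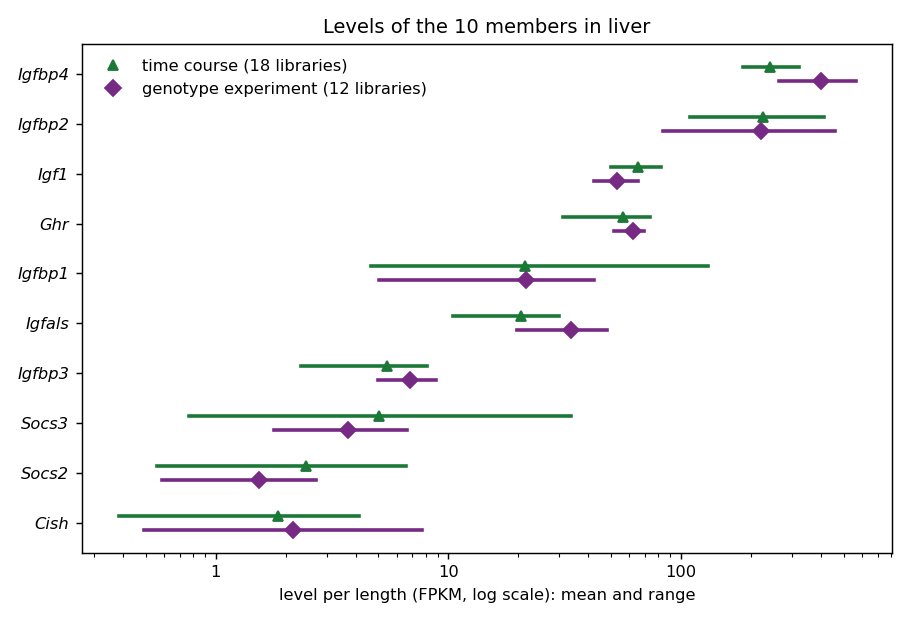
Level per transcript length (FPKM, log scale) of the 10 members, with points for the mean and bars from the lowest to the highest library, for the 18 time-course libraries and the 12 libraries of the genotype experiment. *Igfbp4* and *Igfbp2* sit above 200 FPKM on average, and the 3 inhibitors *Socs2*, *Socs3*, and *Cish* below 6 FPKM with wide bars.

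The first comparison asked how the axis changed with age over the whole day. From 2 to 6 months in the time course, 5 members fell (*Ghr*, *Igf1*, *Igfals*, *Igfbp2*, and *Igfbp3*) and 1 rose (*Socs3*), where 6.73% of all 13948 genes tested were lower and 6.83% were higher. From 2 to 12 months, 2 members fell (*Igf1* and *Igfals*) and none rose, where 5.19% of genes were lower and 6.47% higher. The count of risen members was 0 at an unadjusted p under 0.05 as well, and DESeq2 and limma-voom each called 3 members, all lower. From 6 to 12 months, *Igfbp2* rose and *Socs3* fell, where 8.57% of genes were higher and 7.58% lower. The median log2 fold change of the members was -0.40, -0.25, and 0.00 in these 3 comparisons, beside 0.01, 0.00, and 0.00 for all genes. The 12-month livers also held more RNA of B-lineage genes, of which 3 of 5 were higher than at 2 months and none lower, with a summed level of 12.7 to 25.5 CPM at 2 months and 56.8 to 514 CPM at 12 months. Of 5 stellate cell and fibroblast markers, 2 were higher and 2 lower (*Col1a1* by -1.46 and *Col3a1* by -1.14, log2), with summed levels of 319.9 to 385 CPM and 339 to 486 CPM. Their part in the 12-month values was not tested.

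*Ghr* (chr15:3317760-3583492, minus strand, GRCm38) encodes the receptor that begins the pathway. At 2 months it ranged from 543 to 669 CPM with a median of 573 CPM. At 6 months it ranged from 282 CPM at ZT5 to 524 CPM with a median of 443 CPM, and at 12 months from 459.7 to 624 CPM with a median of 498 CPM. All 6 libraries at 6 months were below all 6 at 2 months, while those at 12 months overlapped with both. *Ghr* fell by 0.46 (log2) between 2 and 6 months (SE 0.12, edgeR adjusted p = 0.0188), to 0.725 times its level. That call was lost without the ZT5 libraries (adjusted p = 0.0553, edgeR), the ZT9 libraries (0.0557), or the 6-month libraries at ZT1 and ZT5 (-0.35, adjusted p = 0.0640). From 2 to 12 months the difference was -0.19 (SE 0.12, edgeR adjusted p = 0.344).

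*Igf1* (chr10:87858265-87937042, plus strand), the growth factor itself, had 639.7 to 816 CPM at 2 months, with a median of 766 CPM. It had 498 to 664 CPM at 6 months (median 609.7 CPM) and 500.4 to 682 CPM at 12 months (median 587 CPM). *Igf1* was lower at 6 and at 12 months than at 2 months at each of the 6 time points, although the ranges overlapped through the 2-month library at ZT17. The log2 fold change was -0.34 at both ages (SE 0.09, edgeR adjusted p = 0.0242 at 6 months and 0.0283 at 12 months), which left 0.795 and 0.786 times the level at 2 months. Both calls were narrow. At 6 months the call was lost when any time point but ZT17 was left out (edgeR adjusted p from 0.0526 to 0.107 without ZT1, 5, 9, 13, or 21, and 0.0982 without the 6-month libraries at ZT1 and ZT5), and at 12 months it was lost without ZT1, 5, 13, or 21 (0.0580 to 0.0989). Between 6 and 12 months the log2 fold change was 0.00 (SE 0.09).

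*Igfals* (chr17:24865997-24882010, plus strand) encodes the acid-labile subunit, which keeps IGF1 and its binding protein in the circulation. Its libraries ranged from 73.3 to 95.1 CPM at 2 months (median 86.0 CPM), from 33.1 to 66.1 CPM at 6 months (median 59.5 CPM), and from 38.9 to 70.9 CPM at 12 months (median 55.9 CPM). Neither later age overlapped with 2 months. *Igfals* fell by 0.64 on the log2 scale to 6 months (SE 0.15, edgeR adjusted p = 0.0118) and by 0.63 to 12 months (SE 0.15, edgeR adjusted p = 0.0140). These calls held when any 1 time point was left out, although without the 6-month libraries at ZT1 and ZT5 the 6-month difference was -0.43 (edgeR adjusted p = 0.0750). The window of 250 bases before a transcription start held the STAT motif TTCNNNGAA, the same on both strands, at 2 of the 3 starts that RefSeq lists for *Igfals* (GRCm38.p6), compared with 7.02% of 32851 promoters. Of the 9 members with a listed promoter 2 held it, *Igfals* and *Socs3*, and the windows of *Igf1* and *Cish* held none. These 30-base windows are shown because *Igfals* fell at both ages and STAT5 is the factor through which GH acts. They lie at chr17:24877598-24877627 and chr17:24878163-24878192, with the motif in capitals beginning 236 and 58 bases before the start. The 250-base windows of both starts overlap annotated exons, and the 30-base windows lie within the coordinates given for the gene.
Igfals start 1: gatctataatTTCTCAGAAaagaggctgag
Igfals start 2: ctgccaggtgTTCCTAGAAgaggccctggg

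**Figure D2:**
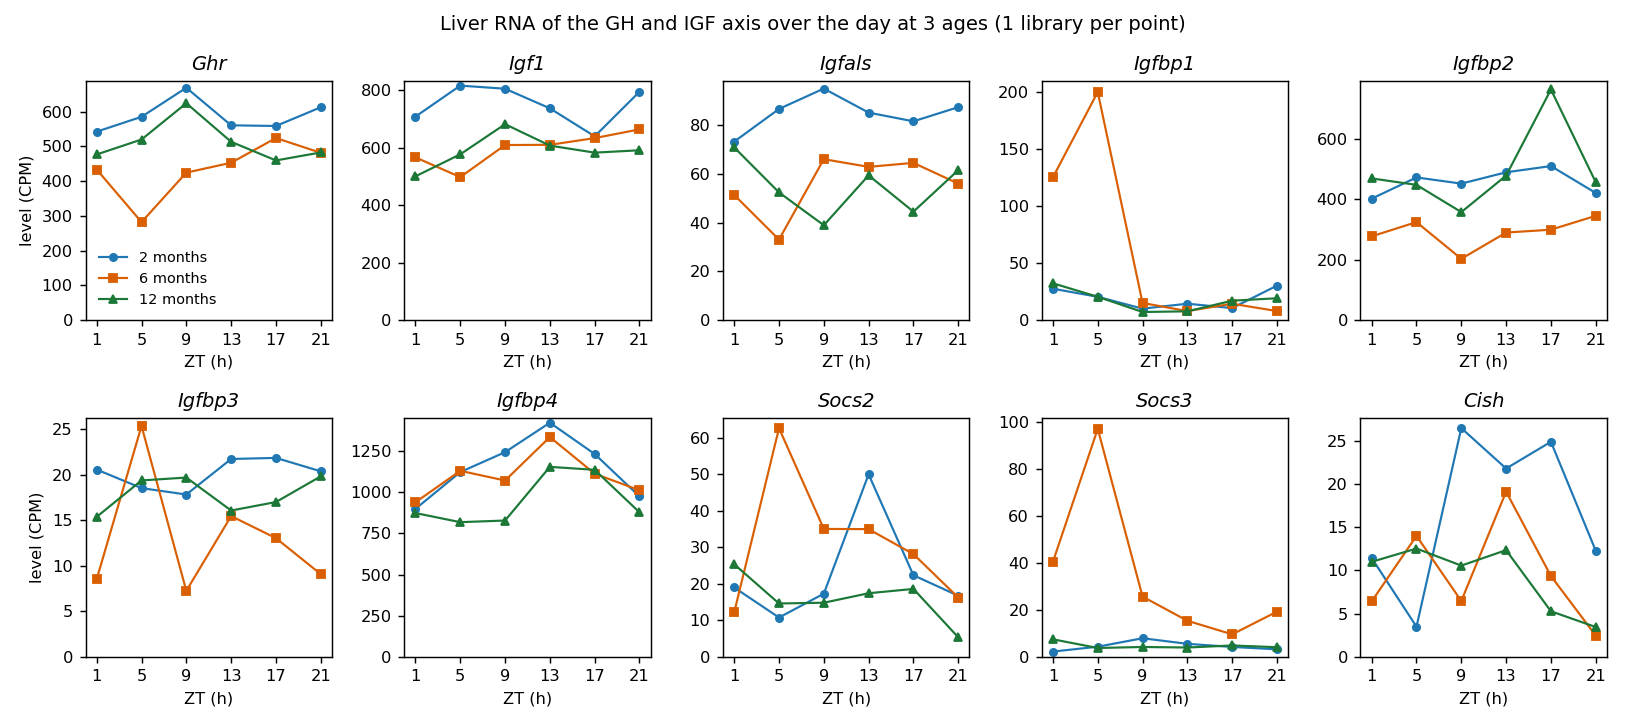
Level (CPM, linear axis from 0) of each member at ZT1, 5, 9, 13, 17, and 21 in the livers of 2, 6, and 12 months, with 1 library per point. *Igf1* and *Igfals* run below their 2-month line at each time point in the older groups, and the 6-month library at ZT5 holds the highest *Igfbp1*, *Igfbp3*, *Socs2*, and *Socs3* and the lowest *Ghr*, *Igf1*, and *Igfals* of the 18 libraries.

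The binding proteins moved apart. *Igfbp2* (chr1:72824503-72852474, plus strand) ranged from 402 to 510.1 CPM at 2 months, from 203 to 345 CPM at 6 months, and from 358 to 764 CPM at 12 months. The 6-month libraries lay below those of both other ages without overlap. *Igfbp2* fell by 0.68 (log2) between 2 and 6 months (SE 0.12, edgeR adjusted p = 0.00188) and rose by 0.77 from 6 to 12 months (SE 0.12, edgeR adjusted p = 0.000627). At 12 months it did not differ detectably from 2 months (log2 fold change 0.09, SE 0.12, edgeR adjusted p = 0.688), and both calls held without any 1 time point.

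*Igfbp3* (chr11:7206086-7213923, minus strand) had 17.8 to 21.9 CPM at 2 months and 15.4 to 19.8 CPM at 12 months, but 7.25 to 25.4 CPM at 6 months. At 6 months 5 of the 6 time points were below their 2-month counterparts, and the ZT5 library was above all others. Its log2 fold change from 2 to 6 months was -0.71 (SE 0.20, edgeR adjusted p = 0.0259), and the call was lost without ZT1, 9, 17, or 21 (0.0667 to 0.104) or without the block for time of day (0.0822). From 6 to 12 months the difference was 0.54 (SE 0.20, edgeR adjusted p = 0.0752). Without the ZT5 libraries it was 0.76 (edgeR adjusted p = 0.00621). ZT5 was the 1 time point where *Igfbp3* was lower at 12 months, so leaving it out enlarges the rise and does not test it. This rise was not called in 8 of 12 alternatives. *Igfbp4* (chr11:99041244-99054392, plus strand) ranged from 899 to 1423 CPM at 2 months, 939 to 1336 CPM at 6 months, and 819 to 1155 CPM at 12 months. It was lower at 12 than at 2 months at all 6 time points, by 0.26 on the log2 scale (SE 0.09, edgeR adjusted p = 0.0695), which passed in DESeq2 (adjusted p = 0.0119) and limma-voom (0.0496) but not in edgeR. *Igfbp1* (chr11:7197782-7202546, plus strand), the neighbour of *Igfbp3* and the binding protein that insulin lowers and fasting raises, had 10.02 to 30.2 CPM at 2 months, 7.90 to 200 CPM at 6 months, and 7.10 to 32.2 CPM at 12 months. Its log2 fold change from 2 to 6 months was 0.89 with an SE of 0.52 (edgeR adjusted p = 0.294), and the 6-month values at ZT9 to ZT21 stayed between 7.90 and 15.01 CPM.

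Set against the summed FPKM of the 4 binding proteins, *Igfbp2* made up 48.2% in the median 2-month library of the time course, then 33.5% at 6 and 53.2% at 12 months, and *Igfbp4* 48.5%, 56.5%, and 42.1%. *Igfbp3* stayed between 0.609% and 1.61% in all 18 libraries. *Igfbp1* reached at most 4.17% at 2 months and 4.42% at 12 months, and 23.0% in the 6-month library at ZT5.

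The feedback inhibitors differed from one another. *Socs3* (chr11:117966079-117970047, minus strand), the cytokine-responsive member, had 2.22 to 7.89 CPM at 2 months, 9.56 to 97.1 CPM at 6 months, and 3.75 to 7.44 CPM at 12 months. Every 6-month library exceeded every library of the other ages. It rose by 2.61 (log2) between 2 and 6 months (SE 0.41, edgeR adjusted p = 0.000625) and fell by 2.55 from 6 to 12 months (SE 0.40, edgeR adjusted p = 0.000580). Without the 6-month libraries at ZT1 and ZT5, the 2 highest, both calls remained. *Socs2* (chr10:95385362-95417180, minus strand), a direct STAT5 target, had 10.8 to 50.0 CPM at 2 months, 12.2 to 62.7 CPM at 6 months, and 5.35 to 25.4 CPM at 12 months, and the ranges overlapped. From 6 to 12 months its log2 fold change was -0.93 (SE 0.36, edgeR adjusted p = 0.0863). Without the ZT1 libraries it was -1.32 (edgeR adjusted p = 0.0181). ZT1 was the 1 time point where *Socs2* was higher at 12 months, so leaving it out enlarges the fall and does not test it. *Socs2* was not called in 10 of 12 alternatives for these ages. *Cish* (chr9:107296026-107302784, plus strand), another STAT5 target, had 3.49 to 26.5 CPM at 2 months, 2.46 to 19.1 CPM at 6 months, and 3.45 to 12.54 CPM at 12 months. It was lower at 5 of 6 time points at each later age, by 0.91 on the log2 scale at 6 months (SE 0.40, edgeR adjusted p = 0.1501) and by 0.89 at 12 months (SE 0.40, edgeR adjusted p = 0.165). The exception was ZT5 at both ages, and without it the differences were -1.30 and -1.23 (edgeR adjusted p = 0.0106 and 0.0128). Leaving out the opposing time point enlarges the fall in any case, so these values do not test it. *Cish* was not called in 10 of 12 alternatives for 6 months and in 9 of 11 for 12 months. Gm17040, a pseudogene on the other strand within *Cish*, held at most 39 reads, and whether counting used strand was not stated in the sources used here.

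*Socs3* held a STAT motif and, on the other strand, the EGR motif GCGNGGGCG within 250 bases of its start, and *Ghr* held the EGR motif, which 4.70% of promoters hold on either strand. The 30-base windows are shown because both genes changed at 6 months. For *Socs3* they are chr11:117969501-117969530 and chr11:117969528-117969557 on the minus strand, with motifs from 154 and 181 bases before the start that do not overlap. For *Ghr* it is chr15:3583430-3583459 on the minus strand, 97 bases before the first of the 2 starts listed, and the window of the second start held no match. The 250-base windows of *Socs3* and of the first *Ghr* start overlap annotated exons. The 30-base windows lie within the coordinates given for the genes. Capitals mark the motif as read on the gene's strand.
Socs3 STAT: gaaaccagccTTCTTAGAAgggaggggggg
Socs3 EGR: cccatcgcgaCGCCCCCGCctctgccagaa
Ghr EGR: ggactgagtaGCGGGGGCGgcgttcagcct

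The 6-month livers of the time course also differed from the others in genes outside the axis. Of the 12 acute-phase genes listed, which the liver makes in response to inflammatory cytokines, 11 were higher at 6 than at 2 months and none lower, with a median log2 fold change of 2.11. Of all genes 6.83% were higher and 6.73% lower. *Saa1*, serum amyloid A, had 80.3 to 330 CPM at 2 months, 5246 to 22661 CPM at 6 months, and 24.9 to 1541 CPM at 12 months. *Lcn2*, which binds bacterial iron carriers, had at most 10.51 CPM at 2 months and 15.01 CPM at 12 months and at least 229 CPM at 6 months. All 3 tested neutrophil markers were higher at 6 months, with a summed level of 1.96 to 5.63 CPM at 2 months and 21.4 to 140.5 CPM at 6 months, and 3 of 6 Kupffer cell and macrophage markers were higher. Libraries of the genotype experiment at 6 months did not stand apart in the same way, with *Saa1* at 48.9 to 610.1 CPM and a summed acute-phase level of 8731 to 13671 CPM, compared with 35583 to 106189 CPM in the time course. The hepatocyte marker *Alb* had 69760 to 83219 CPM at 2 months. At 6 months of the time course it ranged from 38019 CPM at ZT5 to 86947 CPM at ZT17. Cholangiocyte markers summed to 29.7 to 46.6 CPM at 2 months and 37.5 to 144.6 CPM at 6 months. The part of these changes in the 6-month values of *Ghr*, *Igf1*, *Igfals*, *Igfbp2*, *Igfbp3*, and *Socs3* was not tested.

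The genotype experiment held 4 libraries of each age, WT and KO at the H and L times. Since the times differed between ages, age and time of collection cannot be told apart there, except between the L libraries at 6 and 12 months, both at ZT21. From 2 to 12 months, 4 members fell (*Igf1*, *Igfals*, *Igfbp2*, and *Igfbp4*) and 0 rose, where 8.32% of 14389 genes were lower and 7.05% higher. B-lineage genes were again higher at 12 months, 4 of 5 with none lower, at a summed level of 118.6 to 243 CPM compared with 23.95 to 58.6 CPM at 2 months, and their part in these values was not tested. From 2 to 6 months, 1 member fell (*Igfals*), where 2.49% of genes were lower and 2.81% higher. From 6 to 12 months, 1 member fell (*Igfbp4*), where 0.605% of genes were lower and 0.341% higher. No member was higher at an unadjusted p under 0.05 in any of the 3 comparisons (edgeR), and DESeq2 called 2, 4, and 3 members for 6 versus 2, 12 versus 2, and 12 versus 6 months.

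*Igfals* had 151 and 131 CPM in WT and 153 and 145 CPM in KO livers at 2 months (H and L), 103 and 136 CPM in WT and 95.2 and 78.3 CPM in KO livers at 6 months, and 76.7 and 78.9 CPM in WT and 62.5 and 65.6 CPM in KO livers at 12 months. All 4 libraries at 12 months were below all 4 at 2 months. The fall was 1.03 on the log2 scale at 12 months (SE 0.12, edgeR adjusted p = 0.000361) and 0.51 at 6 months (SE 0.12, edgeR adjusted p = 0.0361). *Igf1* had 544 and 584 CPM in WT and 568 and 593 CPM in KO livers at 2 months, and 463 and 457 CPM in WT and 419 and 493 CPM in KO livers at 12 months, again without overlap. It fell by 0.31 (SE 0.09, edgeR adjusted p = 0.0407), to 0.799 times the level at 2 months. At 6 months it had 649 and 527 CPM in WT and 536 and 495 CPM in KO livers. *Ghr* showed no detectable age difference in this experiment (log2 fold change 0.05 at 6 months and -0.06 at 12 months, SE 0.09, edgeR adjusted p = 0.831 and 0.723).

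*Igfbp4* had 2342 and 1717 CPM in WT and 2488 and 2434 CPM in KO livers at 2 months, 1724 and 2021 CPM in WT and 1799.9 and 1941 CPM in KO livers at 6 months, and 1165 and 1208 CPM in WT and 1191 and 1213 CPM in KO livers at 12 months. The 12-month libraries lay within a narrow band below all others. *Igfbp4* fell by 0.89 (log2) between 2 and 12 months (SE 0.11, edgeR adjusted p = 0.000362) and by 0.64 from 6 to 12 months (SE 0.11, edgeR adjusted p = 0.0250). Its RNA was highest at ZT13 at each age of the time course, and here only the 2-month livers were sampled at ZT13. At the H and L times the time course had 1423 and 1233 CPM at 2 months and 819 and 878 CPM at 12 months. The parts of age and time of day in the fall from 2 to 12 months cannot be told apart. Between the L libraries at 6 and 12 months, both at ZT21, *Igfbp4* went from 2021 to 1208 CPM in WT and from 1941 to 1213 CPM in KO livers. *Igfbp2* fell by 1.05 from 2 to 12 months (SE 0.19, edgeR adjusted p = 0.00327), unlike in the time course, where it did not change detectably between these ages. *Socs2* was lower at 12 than at 2 months in all 4 matches of genotype and time class, at 0.423 times on average (log2 fold change -1.18, SE 0.43, edgeR adjusted p = 0.0877), and it passed without the L pair at 6 months (0.0448). For *Igfbp1*, *Igfbp3*, *Socs3*, and *Cish* the groups overlapped at every pair of ages. The 12-month calls of *Igfals* and *Igfbp4* held without any 1 pair. That of *Igfbp2* was lost without the H pair at 2 months (edgeR adjusted p = 0.0655), and that of *Igf1* without any pair at 2 or 12 months (0.0787 to 0.294). The fall of *Igfals* to 6 months held only without the L pair at 6 months (0.0588 to 0.257 without each of the others), and the fall of *Igfbp4* from 6 to 12 months was lost without any pair at these ages (0.0952 to 0.450). With WT libraries alone no member was called at any age, and with KO libraries alone *Igfals*, *Igfbp2*, and *Igfbp4* were called at 12 months. Far fewer of all genes passed in these smaller fits than with both genotypes, as counted further below. These counts do not compare the genotypes, and the test of a genotype difference that varied with age called 0 members (edgeR).

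**Figure D3:**
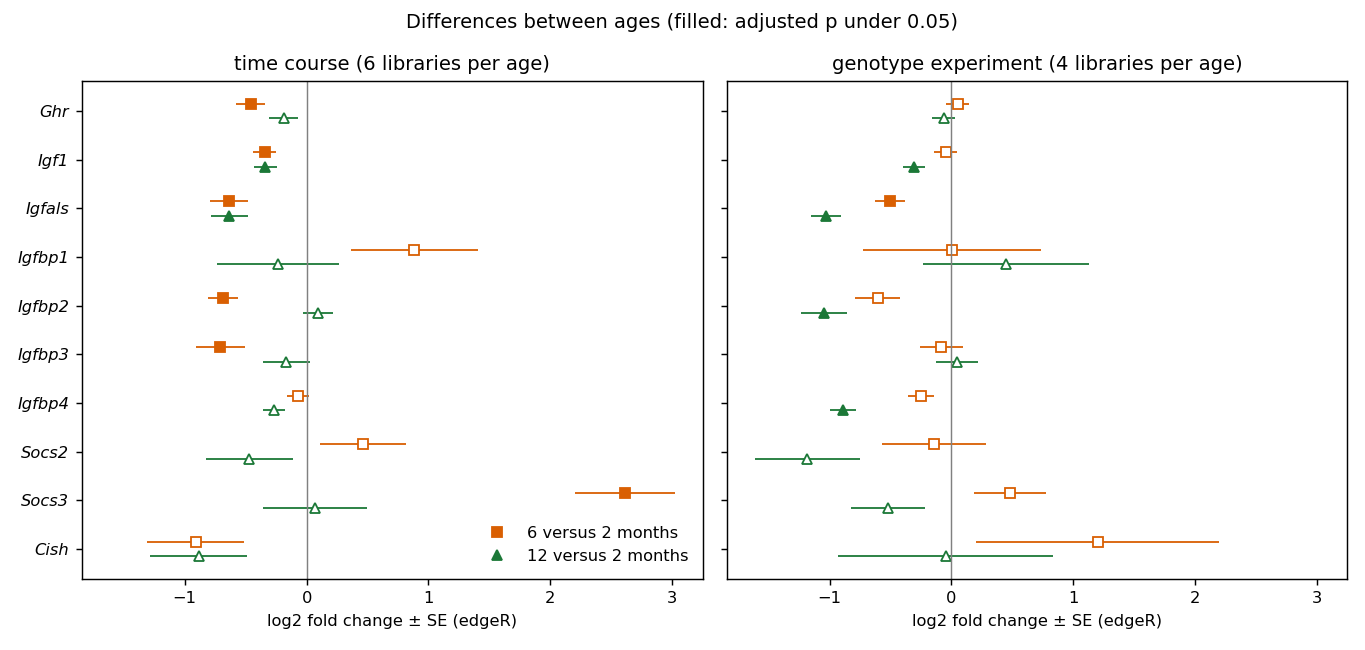
Log2 fold change of each member from 2 to 6 months (squares) and from 2 to 12 months (triangles) in the time course and in the genotype experiment, with bars for the standard error of the edgeR fit and filled points at an adjusted p under 0.05. *Igf1* and *Igfals* are filled at 12 months in both experiments, and *Socs3* stands alone to the right at 6 months in the time course.

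Genes downstream of GH and elsewhere in the pathway were counted from fixed lists. Of 10 male-biased liver genes that depend on GH, 7 were lower and none higher at 12 than at 2 months in the time course (median log2 fold change -0.91). There 5.19% of all genes were lower and 6.47% higher. Between the same ages of the genotype experiment 7 were lower and 1 was higher (median -1.06), where 8.32% of all genes were lower and 7.05% higher. The largest falls in the time course were those of *Selenbp2*, a selenium-binding protein (log2 fold change -2.91, SE 0.17, edgeR adjusted p = 4.17e-08), *Cyp4a12b*, a fatty acid hydroxylase (-1.92, SE 0.28, edgeR adjusted p = 0.000336), and *Cyp7b1*, an oxysterol hydroxylase (-1.15, SE 0.11, edgeR adjusted p = 7.81e-06). *Selenbp2* fell by 4.02 in the genotype experiment (SE 0.47, edgeR adjusted p = 0.000319), where *Elovl3*, a fatty acid elongase, rose by 2.06 (SE 0.32, edgeR adjusted p = 0.00152). *Elovl3* and *Selenbp2* were both among the genes with a daily rhythm in the time course (edgeR adjusted p = 1.33e-06 and 0.00333). The sampling times of the genotype experiment differed between ages. *Cyp4a12a* and *Cyp4a12b* are near-identical copies, so that their separate counts are uncertain. From 2 to 6 months in the time course, 5 of the 10 were lower and none higher, where 6.73% of all genes were lower and 6.83% higher. From 6 to 12 months 4 were lower, where 7.58% of all genes were.

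**Figure D4:**
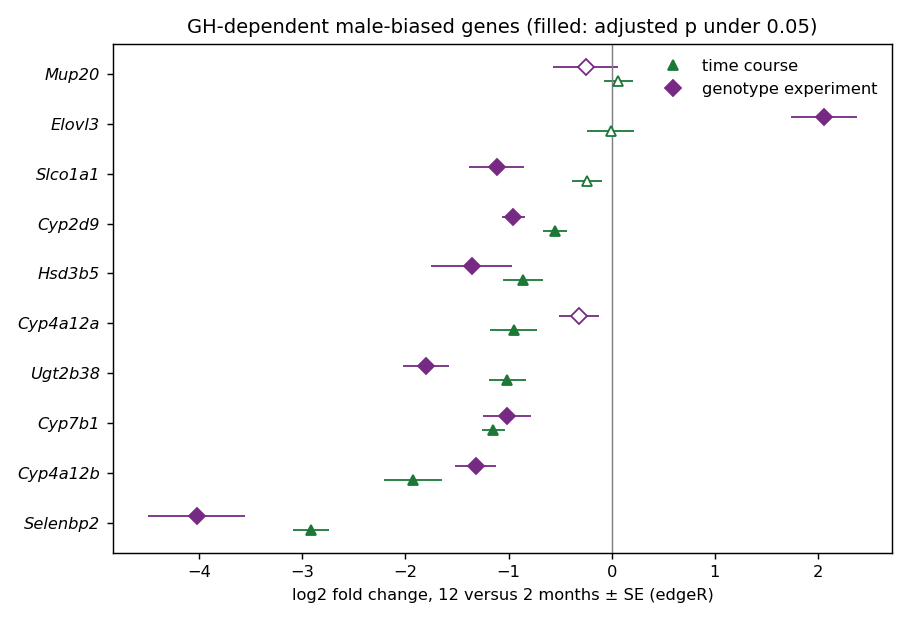
Log2 fold change from 2 to 12 months of 10 GH-dependent male-biased liver genes in the time course (triangles) and the genotype experiment (diamonds), with bars for the standard error of the edgeR fit and filled points at an adjusted p under 0.05. Most points lie left of 0, *Selenbp2* is lowest at -2.91 and -4.02, and *Elovl3* lies at 2.06 in the genotype experiment.

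Of 12 female-biased genes, only 4 in the time course and 5 in the genotype experiment passed the filter in the tests of age. *Cyp2b9*, a cytochrome P450, was lower at 12 months (log2 fold change -1.82, SE 0.44, edgeR adjusted p = 0.0145) and *Cyp3a16* was higher (3.15, SE 0.88, edgeR adjusted p = 0.0293) in the time course. Both changes rest on low counts, since all 12 genes together summed to 3.36 to 13.1 CPM at 2 months and 4.62 to 8.51 CPM at 12 months. Among 18 tested genes of GH signalling, 3 were lower and 1 was higher at 12 months in the time course. There 5.19% of all genes were lower and 6.47% higher. *Stat5b*, the STAT that carries most of the male GH signal, fell by 0.26 on the log2 scale (SE 0.08, edgeR adjusted p = 0.0496), and *Onecut1*, a GH-responsive factor, by 0.71 (SE 0.21, edgeR adjusted p = 0.0386). In the genotype experiment *Stat5b* instead rose by 0.58 from 2 to 12 months (SE 0.12, edgeR adjusted p = 0.00770), one of 3 higher genes among 19 with none lower. Of all genes 7.05% were higher and 8.32% lower between these ages. *Stat5b* had a daily rhythm in the time course (edgeR adjusted p = 6.90e-05). At 6 months in the time course *Stat3*, the cytokine-activated STAT, rose by 0.94 (SE 0.13, edgeR adjusted p = 0.000245) and *Ptpn1*, a phosphatase of JAK2, by 0.95 (SE 0.14, edgeR adjusted p = 0.000392). *Leprot* of the same list rose by 0.33 (SE 0.09, edgeR adjusted p = 0.0233). *Stat5b* fell by 0.35 from 2 to 6 months (SE 0.08, edgeR adjusted p = 0.00933). Of 8 tested genes of the wider IGF system, 2 further binding proteins were higher and none lower at both later ages. Of all genes 6.83% were higher at 6 months and 6.47% at 12 months. *Igfbp5* rose by 1.05 at 6 months (SE 0.20, edgeR adjusted p = 0.00262) and by 1.53 at 12 months (SE 0.20, edgeR adjusted p = 0.000130), and *Igfbp6* by 1.22 (SE 0.21, edgeR adjusted p = 0.00161) and 0.77 (SE 0.21, edgeR adjusted p = 0.0294). None of the 9 tested genes of this list passed in edgeR from 2 to 12 months of the genotype experiment.

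A daily rhythm shared by the 3 ages was found for 2 members, *Igfbp1* and *Igfbp4*, where 15.8% of 13733 genes had one. *Igfbp1* peaked at ZT1.96 with a fitted log2 amplitude of 1.29 (edgeR adjusted p = 0.0142). At 2 months it was highest at ZT21 (30.2 CPM) and lowest at ZT9 (10.02 CPM), at 6 months highest at ZT5 (200 CPM) and lowest at ZT13 (7.90 CPM), and at 12 months highest at ZT1 (32.2 CPM) and lowest at ZT9 (7.10 CPM). ZT1 was among the 2 highest values at each age. The call held without the 6-month libraries (edgeR adjusted p = 0.00101), and it was lost without the ZT1 libraries (0.0572) or the ZT13 libraries (0.0730). *Igfbp4* peaked at ZT13.4 with an amplitude of 0.23 (edgeR adjusted p = 0.0139) and was highest at ZT13 at each age, with 1423, 1336, and 1155 CPM. Its call was lost without ZT1 (0.107), ZT13 (0.228), or ZT21 (0.0549). *Socs3* (edgeR adjusted p = 0.0835) and *Cish* (0.155) had unadjusted p under 0.05 only, and *Igf1* (0.729), *Ghr* (0.655), and *Igfals* (0.739) varied by at most 0.09 in fitted amplitude.

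The promoter of *Igfbp1* is shown because its RNA had the widest daily range of the rhythmic members and because insulin acts on this gene through a well-studied element. RefSeq lists 1 start, and the 245 bases before the annotated first exon (chr11:7197537-7197781, plus strand, GRCm38.p6) hold the letters CAAAACA, in capitals, 108 bases before the start. This core of the element bound by FoxO factors was searched on both strands, and 5.56% of promoters hold it.
Igfbp1: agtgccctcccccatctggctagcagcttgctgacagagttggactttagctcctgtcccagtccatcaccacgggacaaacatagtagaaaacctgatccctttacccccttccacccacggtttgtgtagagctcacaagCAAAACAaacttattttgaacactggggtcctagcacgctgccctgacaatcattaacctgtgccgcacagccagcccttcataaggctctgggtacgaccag

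Within single ages, the exact permutation test on the order of 6 values called *Igfbp4* at 2 months and *Ghr* and *Socs3* at 6 months, each at the smallest p it allows (0.0333, two-sided, unadjusted). These were 1, 2, and 0 members at 2, 6, and 12 months, where 8.68%, 8.2%, and 6.44% of 12470 genes were called. At 12 months the smallest exact p of a member was 0.133, for *Igfbp1* and *Igfbp4*. In the edgeR cosinor of that age 3 members had an unadjusted p under 0.05, with no share of all genes given to set beside them. No member was called at all 3 ages.

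Whether a rhythm differed between ages was tested directly. From 2 to 6 months 1 member passed, *Socs3* (edgeR adjusted p = 0.0304), where 0.105% of 14268 genes did. *Socs3* peaked at ZT10.8 with an amplitude of 0.75 at 2 months and at ZT4.33 with an amplitude of 1.49 at 6 months. At 2 months it went from 2.22 CPM at ZT1 to 7.89 CPM at ZT9, and at 6 months from 40.5 and 97.1 CPM at ZT1 and ZT5 to 9.56 CPM at ZT17. The call was lost without ZT5 (0.204), ZT13 (0.105), ZT17 (0.329), or ZT21 (0.0638), and in limma-voom (0.0886). From 2 to 12 months 0 members and 0% of all genes passed in edgeR. Of the members, *Socs3* and *Cish* were the 2 with an unadjusted p under 0.05, with no share of all genes given beside them. DESeq2 and limma-voom called none.

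The second experiment asked what changed in livers labelled KO for *Egr-1*, a transcription factor induced by growth factors. Over the 6 pairs, 1 member fell (*Igfbp2*) and 0 rose, where 0.721% of 14843 genes were lower and 0.64% higher. *Igfbp2* was also the member called by DESeq2 and limma-voom. It was the 1 member with an unadjusted p under 0.05 (edgeR), a threshold that 2272 of all 14843 genes passed. In WT livers *Igfbp2* had 845 and 626 CPM at 2 months (H and L), 470.3 and 627 CPM at 6 months, and 259 and 460.2 CPM at 12 months. In the paired KO livers it had 432 and 363 CPM, 236 and 217 CPM, and 217 and 155 CPM. The KO library was lower in 6 of 6 pairs, although the ranges of the genotypes overlapped across ages. *Igfbp2* fell by 1.02 on the log2 scale (SE 0.15, edgeR adjusted p = 0.0155), and the single pairs ranged from -0.26 (H at 12 months) to -1.57 (L at 12 months). Without the L pair at 12 months the difference was -0.91 (edgeR adjusted p = 0.0547), with the H pairs alone it was -0.75 (0.214), and without the block for pairs it was -1.03 (0.191). Without the 2 pairs whose *Egr1* was not lower in the KO library, *Igfbp2* remained called (-1.27, edgeR adjusted p = 0.0386). The pairs kept included the H pair at 2 months, where *Egr1* differed little (2.57 CPM in WT and 1.99 CPM in KO).

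*Alb*, whose promoter drives the Cre transgene, was itself lower in the KO library of each pair, with 52419 to 66783 CPM in WT and 26339 to 36312 CPM in KO livers (log2 fold change -0.89, SE 0.10, edgeR adjusted p = 0.00748). Of the 6 hepatocyte markers, *Alb* and *Fgb* were lower and none higher, and their summed level was 66699.6 to 84136 CPM in WT and 38229.8 to 51319 CPM in KO livers. Whether the fall of *Igfbp2* shares a source with that of *Alb* was not tested.

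The promoter of *Igfbp2* is shown because it is the member that differed between the genotypes. The 250 bases before its first RefSeq start (chr1:72824230-72824479, plus strand, GRCm38.p6) are rich in G and hold no match to the letters GCGNGGGCG on either strand, and its second listed window holds none either. This says only that these letters are not in these windows.
Igfbp2: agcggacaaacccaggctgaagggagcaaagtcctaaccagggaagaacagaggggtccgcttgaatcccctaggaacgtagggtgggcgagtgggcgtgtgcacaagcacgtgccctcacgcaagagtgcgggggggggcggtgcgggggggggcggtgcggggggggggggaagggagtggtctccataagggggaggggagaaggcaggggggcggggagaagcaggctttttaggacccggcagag

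**Figure D5:**
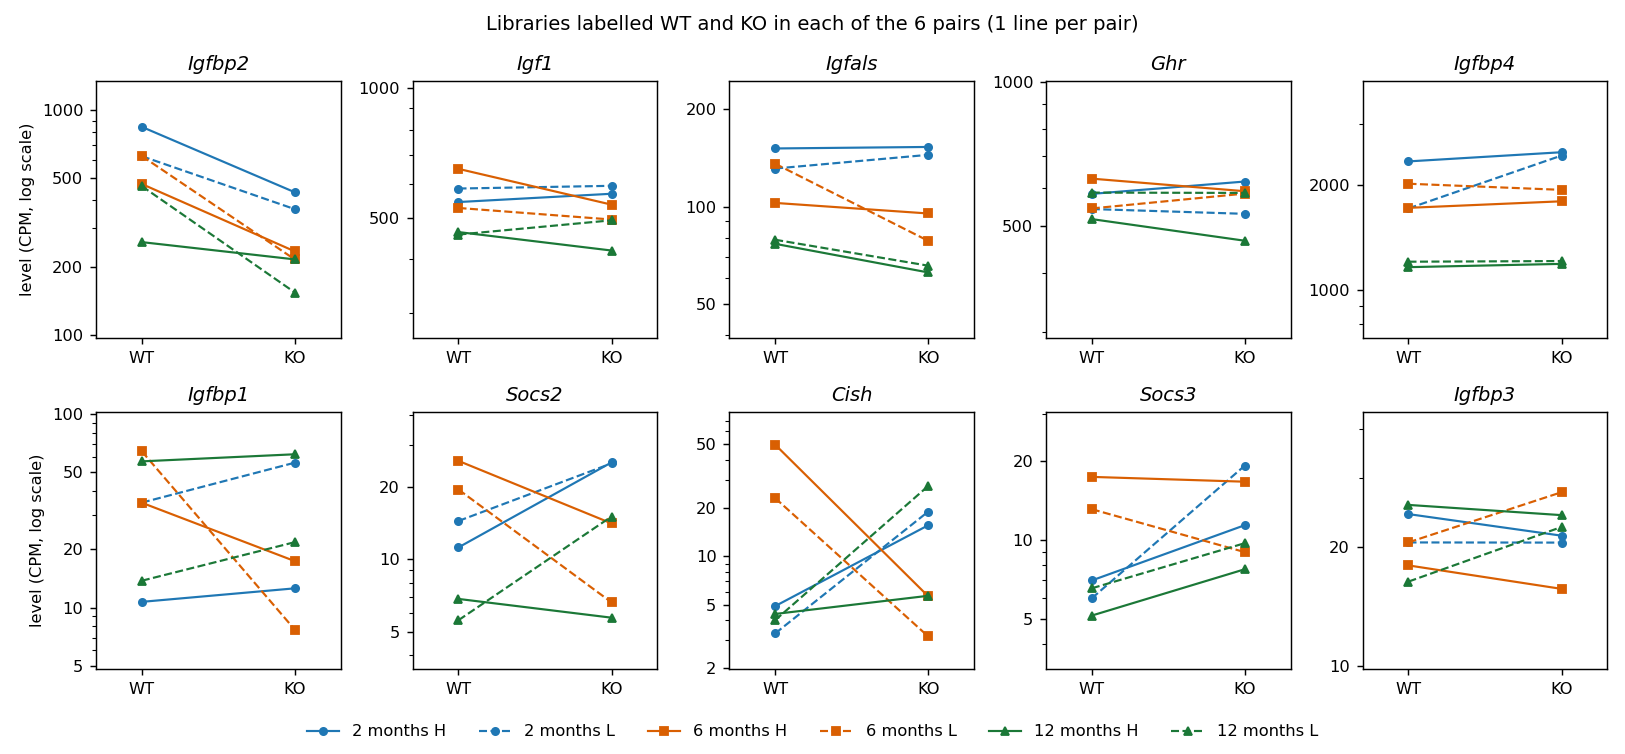
Level (CPM, log scale) of each member in the WT and the KO library of each pair, with 1 line per pair, colours for age, and solid or dashed lines for the H or L time. All 6 lines of *Igfbp2* slope down, most of those of *Igf1*, *Ghr*, and *Igfbp4* are nearly flat, and those of *Cish* and *Socs2* cross, lower in the KO library at 6 months and higher at 2 months.

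The other 9 members did not differ detectably between the genotypes. The differences were small for *Ghr* (log2 fold change -0.02, SE 0.06, edgeR adjusted p = 0.919), *Igf1* (-0.06, SE 0.07, edgeR adjusted p = 0.755), and *Igfbp4* (0.10, SE 0.08, edgeR adjusted p = 0.616). *Igfals* was lower in 4 of 6 pairs (-0.22, SE 0.11, edgeR adjusted p = 0.356), and *Socs3* higher in 4 of 6 (0.46, SE 0.23, edgeR adjusted p = 0.375). For *Socs2* (0.12, SE 0.36), *Cish* (0.26, SE 0.84), and *Igfbp1* (-0.32, SE 0.42) the standard errors were wide. From the lists, *Slco1a1*, a male-biased organic anion transporter, fell by 0.93 (SE 0.17, edgeR adjusted p = 0.0373) and *Igfbp7* rose by 0.34 (SE 0.07, edgeR adjusted p = 0.0422). None of the 19 genes of GH signalling passed (edgeR). Of all genes 0.721% were lower and 0.64% higher, shares too low for a list of that size to be expected to hold any.

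The pairs of *Cish* differed in sign between ages. At 2 months *Cish* was higher in the KO livers, with 4.89 and 3.30 CPM in WT and 15.6 and 19.0 CPM in KO livers (H and L). At 6 months it was lower, with 49.5 and 23.0 CPM in WT and 5.63 and 3.17 CPM in KO livers. At 12 months the H pair had 4.37 and 5.67 CPM and the L pair 3.997 and 27.4 CPM in WT and KO livers. *Socs2* followed the same signs in 5 of these 6 pairs, with 11.2 and 14.5 CPM in WT and 25.3 and 25.1 CPM in KO livers at 2 months, and 25.7 and 19.5 CPM in WT and 14.1 and 6.62 CPM in KO livers at 6 months. *Igfbp1* had 34.8 and 64.3 CPM in WT and 17.4 and 7.68 CPM in KO livers at 6 months and was 1.09 to 1.61 times higher in the KO library of the other 4 pairs. A genotype difference that varied with age was called for 0 members, where 0.0135% of genes passed, and one that varied between H and L for 0 members, where 0.00674% passed (edgeR). At an unadjusted p under 0.05 these counts were 4 (*Igfbp1*, *Socs2*, *Socs3*, and *Cish*) and 1 (*Igfbp3*). In the test between H and L, 753 of all 14843 genes passed that threshold. For the test of age no such count over all genes is given, so its 4 members cannot be set against a share. The smallest p of a member was that of *Cish* for age (unadjusted p = 9.26e-05, adjusted p = 0.240, edgeR). DESeq2 called *Cish* alone (adjusted p = 0.00109) for age and no member for time, and limma-voom called none in either test. In edgeR, *Cish* also passed for age without the H pair (adjusted p = 0.0108) or the L pair (0.0141) at 12 months. Each age held 2 pairs only. *Egr1* itself was high in the WT livers at 6 months, with 72.4 and 24.9 CPM, and in the L library at 12 months, with 54.8 CPM, beside 1.45 to 5.83 CPM in the other 3. In that 12-month pair *Cish* and *Socs2* (5.58 and 15.1 CPM) were higher in the KO library, unlike at 6 months.

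WT livers of the genotype experiment and livers of the time course were also available at the same age and ZT, in tables that were normalized separately. *Igfals* was 1.28 to 2.42 times and *Igfbp4* 1.38 to 2.00 times as high in the WT livers at all 6 matches. *Igf1* ranged from 0.737 to 1.07 times. *Cish* ranged from 0.133 times at ZT17 of 2 months (3.30 and 24.9 CPM) to 9.36 times at ZT21 of 6 months (23.0 and 2.46 CPM). *Socs3* at 6 months was 0.676 and 0.680 times, with 17.3 and 13.1 CPM in WT livers and 25.6 and 19.2 CPM in the time course.

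The genes most like *Igf1*, *Socs2*, and *Igfbp1* over the 18 libraries of the time course were named by their Pearson correlation on the log2(CPM + 1) scale among 7228 genes averaging 10 CPM or more. For *Igf1* they were *Otc*, of the urea cycle (r = 0.890), *Aldh6a1*, of valine breakdown (0.847), and *Nup88*, of the nuclear pore (0.843). Over the 12 libraries of the genotype experiment, the same genes had r of 0.344, 0.273, and 0.890. For *Socs2* they were *Ube2s* (0.798), *Slc25a30* (0.786), and *Itga9* (0.758), with 0.762, 0.482, and 0.116 in the genotype experiment. For *Igfbp1* they were *Slc16a1*, a lactate transporter (0.893), *Plscr1* (0.839), and *Stt3b* (0.826), with 0.280, 0.205, and 0.207. All points share their libraries and depth, and the 6-month library at ZT5 is the highest of the time course for *Igfbp1* and *Socs2*. These values are descriptions without a test.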

How the data were processed

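Liver poly(A) RNA was sequenced. Per the labels, the authors trimmed reads with fastp, aligned them to mm10 with HISAT2, and counted them per gene with featureCounts (versions and strand setting not given in the sources used here). They deposited whole-number counts, 1 table per experiment, and all columns were assigned to samples (0 left out). The counts were TMM-normalized within each table and tested with edgeR 4.0.16 (quasi-likelihood F-test, Benjamini-Hochberg adjustment over all genes passing filterByExpr) in R 4.3.3. Age in the time course was tested with time of day as a block, age in the genotype experiment with genotype as a covariate, and KO versus WT with the 6 pairs as a block. Each pair was the WT and KO library of 1 age and time class. Rhythms were tested with a 24 h cosinor in edgeR and, within an age, with an exact permutation test over the 720 orders of 6 values. FPKM used the summed exon length of GENCODE M21. Alternatives were DESeq2 1.42.0, limma-voom (limma 3.58.1), other scaling, no filter, a log2 fold threshold of 1.2, fits without blocks, and libraries left out. Tests were checked on simulated data.

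The members and lists were chosen with earlier results of these data known. From the lists of GH signalling, the IGF system, sex-biased genes, feeding state, and acute-phase genes, genes passing the test could be named, up to 5 per comparison by fold change, and for *Igf1*, *Socs2*, and *Igfbp1* the 3 genes with the highest correlation. *Saa1*, *Lcn2*, *Alb*, and *Egr1* were named as markers of the libraries. RefSeq promoters (GRCm38.p6) were matched for 9 of the 10 members.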

Additional observations from a re-analysis of the deposited data

Results flagged for a closer look

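Among 50 groups of 6 libraries, 5 had a library far from the rest by Dixon's ratio of gap to range, where chance flags about 1 in 20 groups. These were *Ghr* at ZT9 of 12 months (624 CPM, next 520 CPM), *Igfbp2* at ZT17 of 12 months (764 CPM, next 478 CPM), *Socs2* at ZT13 of 2 months (50.0 CPM, next 22.4 CPM), *Socs3* at ZT5 of 6 months (97.1 CPM, next 40.5 CPM), and *Socs3* at ZT1 of 12 months (7.44 CPM, next 4.82 CPM). The rhythm of *Socs3* differed between 2 and 6 months in the test of that difference (edgeR adjusted p = 0.0304).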

How the results depend on the processing

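Each count of members was recomputed under every alternative, and no call changed direction. Leaving out single time points or pairs gave 3 to 5 members for 6 versus 2 months and 1 to 2 for 12 versus 2 months in the time course (6 and 2 with all libraries), and 2 to 3 for 12 versus 6 months. It gave 0 to 2 for the shared rhythm, 0 to 1 for the rhythm difference of 6 versus 2 months, 0 to 1 for KO versus WT, and 0 to 1 for genotype by age. In the genotype experiment it gave 0 to 1, 2 to 5, and 0 to 1 for 6 versus 2, 12 versus 2, and 12 versus 6 months. Adding a log2 fold threshold of 1.2 left 1, 0, and 1 members in the time course (6 versus 2, 12 versus 2, 12 versus 6 months) and 0 for KO versus WT and for each age comparison of the genotype experiment. Without the filter on low counts the counts were 5 for 12 versus 6 months and 2 for the rhythm difference in the time course, 4 for genotype by age, and 4, 7, and 7 for the age comparisons of the genotype experiment. DESeq2 gave 1 for genotype by age, and 2 and 3 for 6 versus 2 and 12 versus 6 months of the genotype experiment. Limma-voom gave 0 for the rhythm difference. The exact test at all 3 ages gave 0 rhythmic members, and the cosinor gave 0 at 2 months. Without the pair block, or with H pairs alone, KO versus WT gave 0. WT libraries alone gave 0 in all 3 age comparisons, and KO libraries alone 0 for 6 versus 2 and 12 versus 6 months. Without the 6-month libraries at ZT1 and ZT5, 3 members differed from 2 months. That setting, the rhythm without 6-month libraries, the removal of the pairs by *Egr1*, and leaving out pairs in the tests of age and interaction in the genotype experiment were chosen after seeing the data. Of the values of single members, 930 kept their side of the threshold, 60 lost it and 30 gained it, 18 of the last without the filter. The causes were not tested.

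Counts over all genes moved further. In the time course, 1892, 1626, and 2252 genes (6 versus 2, 12 versus 2, and 12 versus 6 months) became 320, 291, and 356 with the fold threshold, 1059, 997, and 1418 without the block for time of day, and at least 1196, 955, and 1286 without 1 time point. Without the 6-month libraries at ZT1 and ZT5 the first and last became 1226 and 1183. The shared rhythm went from 2167 to 1228 without ZT13. The rhythm difference of 6 versus 2 months went from 15 to 209 in DESeq2, 133 without the filter, and 0 to 69 without 1 time point, and that of 12 versus 2 months from 0 to 14 in DESeq2 and 4 without the filter. For KO versus WT, 202 genes became 430 in DESeq2, 636 without the filter, 21 with the fold threshold or without the pair block, 2 and 54 with H or L pairs alone, 45 to 137 without 1 pair, and 9 without the pairs chosen by *Egr1*. Genotype by age went from 2 to 9 in DESeq2, 100 without the filter, and 0 to 6 without 1 pair, and genotype by time from 1 to 20, 117, and 0 to 3. In the genotype experiment 763, 2212, and 136 genes (6 versus 2, 12 versus 2, and 12 versus 6 months) became 103, 390, and 36 with the fold threshold, 17, 575, and 1 at the lowest without 1 pair, 0, 72, and 2 with WT libraries alone, and 0, 309, and 1 with KO libraries alone. DESeq2 gave 1221 for the first and 512 for the last, and no filter 1475 and 986.

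With 1 library per age and time, single libraries decide several calls, and the lowest counts of members were those of *Cish* (33 to 386 reads in the time course) and *Socs3* (32 to 1289). How far depth limits their precision was not tested.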

Other observations

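Of 12 genes that respond to feeding and fasting, 3 were lower and none higher at 6 than at 2 months in the time course, where 6.73% of all genes were lower and 6.83% higher. At 12 months 5 were higher and 1 lower than at 2 months, where 6.47% of all genes were higher and 5.19% lower. *Fgf21*, a fasting-induced hormone that is linked to GH resistance, rose by 2.52 (log2) between 2 and 12 months (SE 0.52, edgeR adjusted p = 0.00525), and *Fasn*, the fatty acid synthase, by 1.54 (SE 0.35, edgeR adjusted p = 0.0104). *Pck1*, a gluconeogenic enzyme that insulin lowers, fell by 0.88 (SE 0.24, edgeR adjusted p = 0.0256). In the genotype experiment only *Tat*, of amino acid breakdown, differed between these ages in that list, and it fell by 0.91 (SE 0.20, edgeR adjusted p = 0.00978).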
